A study of Oryctolagus cuniculus with 4 samples.

Results

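Of 1489 genes that could be named on a rabbit array, 6 glycolysis and muscle glycogen genes are described here in ligamentum flavum, an elastic ligament between the arches of adjacent vertebrae. They were chosen by name, with earlier results of these data known, so they are not an unselected set beside all features. They comprise 3 muscle forms, ENO3, PYGM and PPP1R3A, and 3 general forms, ALDOA, LDHA and GAPDH. All 12 probes whose accession is a RefSeq transcript of these genes were used, of 43603 probes on the array. The samples came from male rabbits aged 34 weeks, 16 weeks after surgery at 18 weeks of age. In the surgery model, muscle over L3-4 was removed and the levels L2-3 and L4-5 were fused posterolaterally with instruments. The ligament labelled ISC level, for stress concentration at L3/4, is called the ISC segment here and was set beside an L3/4 control. The fused segments, L2/3 with L4/5, were set beside an L2/3 and L4/5 control, which makes 4 groups. The labels give the same surgery text for all 4 samples, and whether controls were operated on, or samples were pooled over animals, is not given in the sources used here. Stress or fusion and the operation on the same segment cannot be told apart.

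Glycolysis splits glucose into pyruvate and yields ATP without oxygen, and every tissue uses it. Skeletal muscle also stores glycogen, which its own phosphorylase breaks down to feed the same pathway during contraction, so muscle fibres hold glycolytic and glycogen enzymes at very high levels. Several steps have a muscle form beside forms of other tissues. ENO3 encodes the muscle enolase, PYGM the muscle glycogen phosphorylase and PPP1R3A the muscle subunit that targets protein phosphatase 1 to glycogen. ALDOA encodes aldolase A, LDHA the A chain of lactate dehydrogenase and GAPDH glyceraldehyde-3-phosphate dehydrogenase, which are expressed widely, and they are also the forms on which skeletal muscle relies. Ligament cells are fibroblasts with a sparse blood supply.

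Each group was measured on 1 array, so differences between groups carry no replicate error and no test. Precision is limited by that number. All 4 arrays lay on 1 slide, between 59.6% and 67.9% of probes were well above background, and no spot was saturated. Levels are log2 of the scanner's processed signal minus the 75th percentile of that array, so a level of 0 is the signal that 75% of spots do not exceed. A ratio is the difference of 2 levels, and a ratio of at least 2-fold was used as a fixed size. Where a gene had several probes, the one with the highest mean level stands for it. The only errors that can be given are technical: the scanner's own error model, and the spread over spots of 1 probe, whose median SD was 0.12 to 0.15 on the log2 scale. All 6 named ligament fibroblast markers were well above background on 3 arrays, and all but TNMD, tenomodulin, on the array of the fused segments. Of 22 named skeletal muscle markers, 17 were well above background in the ISC segment, 13 in the L3/4 control, 14 in the fused segments and 19 in the L2/3 and L4/5 control. Their summed signal, in units of each array's 75th percentile, was 31.4 in the ISC segment, 42.8 in the L3/4 control, 18.3 in the fused segments and 951 in the L2/3 and L4/5 control. Such a sum is ruled by the brightest gene, TNNC2, whose level was 9.25 in the L2/3 and L4/5 control. The median level of the 22 markers, dim ones included, was −2.62, −2.46, −2.77 and 2.28 in the same order of groups. The last array stood apart in muscle RNA, and the ratios of the members, and of the list genes that were low in the fused segments, are also given against the other control.

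All 6 genes had their highest level in the L2/3 and L4/5 control, at least 2-fold above each of the other 3 arrays. Across all features (genes, or transcripts without a symbol) well above background in that control, 3.13% (455 of 14529) did so. The margin over the next array was 5.73 for PPP1R3A, 5.56 for PYGM and 4.65 for ENO3 on the log2 scale. It was 3.20 for ALDOA, 2.17 for GAPDH and 1.44 for LDHA, so each muscle form stood out by more than each general form.

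ENO3 had signals of 11.8 in the ISC segment, 14.9 in the L3/4 control, 8.33 in the fused segments and 508 in the L2/3 and L4/5 control. As scaled levels these were −2.99, −1.85, −3.36 and 2.80, in the same order. Its single probe was well above background on all 4 arrays, but on 3 of them by little, and the scanner's error there was 13.1% to 20.4% of the signal.

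PYGM was measured by 1 probe spotted 5 times on each array, the only one of the 6 genes with repeated spots. Its spots read 16.5 to 25.2 in the ISC segment, 1.26 to 3.00 in the L3/4 control, 6.16 to 10.3 in the fused segments and 677 to 785 in the L2/3 and L4/5 control. The spots of different arrays did not overlap. No spot was well above background in the L3/4 control, and 3 of 5 were in the fused segments. The scaled levels were −2.19 ± 0.22 in the ISC segment, −3.37 ± 0.29 in the fused segments and 3.37 ± 0.09 in the L2/3 and L4/5 control (SD over 5 spots, a technical spread).

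PPP1R3A had 3 probes, which read 94.5 to 522 in the L2/3 and L4/5 control, where all were well above background. In the ISC segment they read 1.3 to 3.2, none well above background. Only the brightest probe was well above background in the L3/4 control, at a signal of 6.5, and in the fused segments, at 11.5. The gene was thus close to the limit of detection on the same 3 arrays on which ENO3 and PYGM were low or not detected.

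The general forms were well above background everywhere. ALDOA had signals of 1971 in the ISC segment, 950 in the L3/4 control, 1676 in the fused segments and 14039 in the L2/3 and L4/5 control. Its scaled levels, which take out the overall brightness of each array, were 4.39, 4.15, 4.29 and 7.59, and without the last array they spanned only 0.24. GAPDH levels were 3.895, 3.55, 3.76 and 6.07 in that order of groups, and spanned 0.35 without the last array. LDHA levels were 2.44, 1.76, 1.43 and 3.88, and spanned 1.01 without the last array. The scanner's error on a ratio of 2 such spots was 0.20, so the order of the 3 lower arrays is within about that error for neighbouring values of ALDOA and GAPDH. For LDHA the ISC segment stood above the other 2 by more than that.

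**Figure D1:**
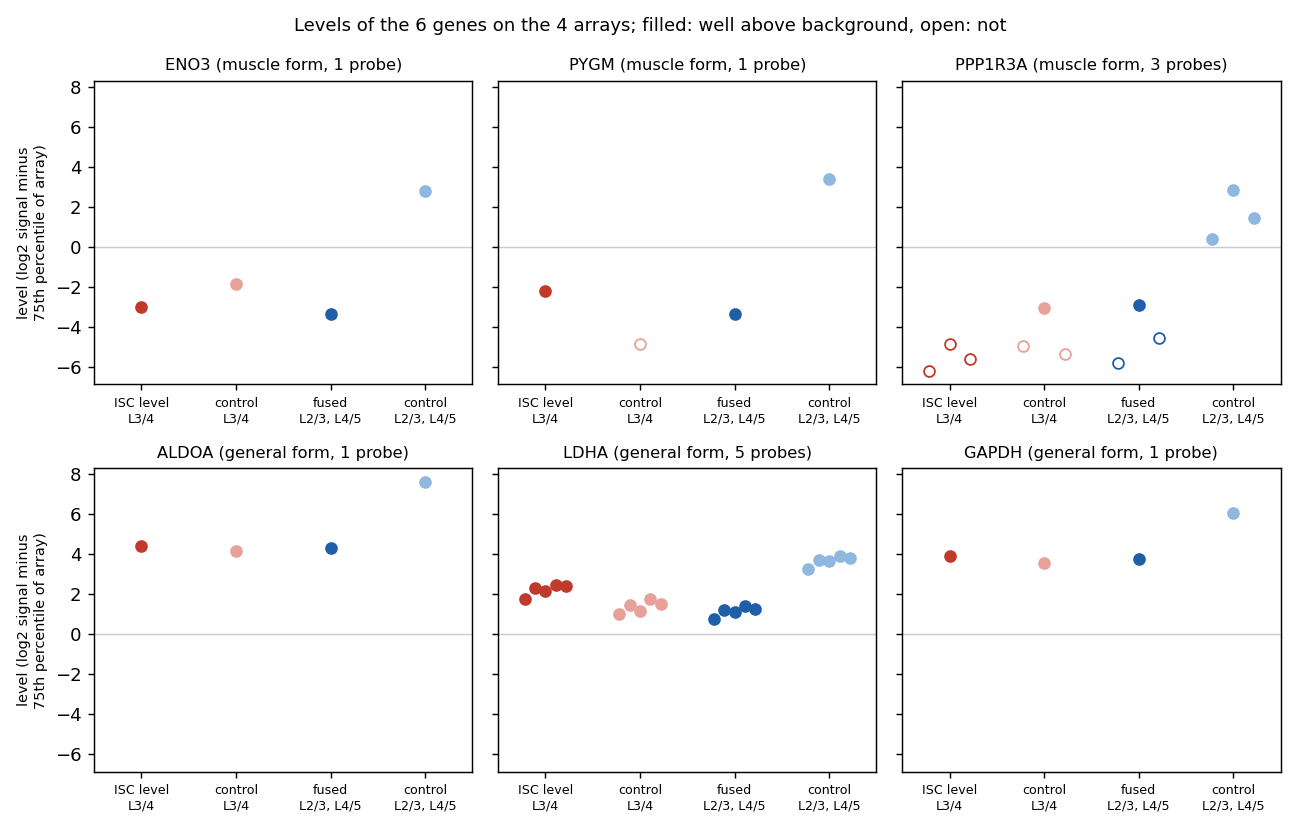
Scaled log2 levels of each probe of the 6 genes on the 4 arrays (1 panel per gene, 1 point per probe, 1 array per group). Filled points were well above background and open points were not. Every gene is highest in the L2/3 and L4/5 control. PYGM is not well above background in the L3/4 control, and no PPP1R3A probe is in the ISC segment.

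Setting the ISC segment beside the L3/4 control addresses transcripts of ligament at a site of concentrated stress. The general forms were slightly higher in the ISC segment, all under 2-fold, and the muscle forms showed no shared direction. ALDOA was higher by 0.24, GAPDH by 0.35 and LDHA by 0.68 on the log2 scale. The 5 LDHA probes ranged from 0.68 to 0.996. The median of all 13731 features measured on both arrays was −0.16.

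ENO3 was lower in the ISC segment, at −1.14, with a scanner error of 0.29. PYGM was higher by at least 1.95-fold, since no control spot stood well above background. PPP1R3A was lower by at least 1.75-fold, since it was not well above background in the ISC segment. Of the 4 members well above background on both arrays, ENO3 alone was at least 2-fold apart, beside 19.6% of all features in either direction (9.11% higher and 10.5% lower). Of 13 muscle markers measured, 1 was higher and 3 were lower by 2-fold or more, and the median was −0.26. The fast-fibre light chain gene MYL1 was at 1.25 and the calsequestrin gene CASQ2 at −3.10. Only 1 of the 3 CASQ2 probes was well above background on both arrays, and over all 3 the ratios ran from −3.10 to −0.52.

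Against the L2/3 and L4/5 control, the ISC segment was lower for ALDOA at −3.20, for GAPDH at −2.17 and for LDHA at −1.44, and for ENO3 at −5.79 and PYGM at −5.56. All 5 measured members were 2-fold lower or more, beside 5.02% of 14112 features (8.57% in either direction). Which control is used therefore turns the sign for the general forms and for PYGM, and for ENO3 it enlarges the difference from 2.21-fold to 55.3-fold.

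The fused segments and the L2/3 and L4/5 control address ligament across a fused joint. All 6 members were lower by 2-fold or more in the fused segments, beside 9.12% of 13715 features (7.83% were higher and 17.0% differed in either direction). PYGM had a ratio of −6.74 (107-fold), ENO3 of −6.16 (71.5-fold) and PPP1R3A of −5.73 (53.1-fold). Only 4, 10 and 14 features of all those measured had a lower ratio than PYGM, ENO3 and PPP1R3A. ALDOA was at −3.30 (9.83-fold), LDHA at −2.45 (5.46-fold) and GAPDH at −2.31 (4.96-fold), and the 5 LDHA probes lay between −2.59 and −2.45.

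The muscle forms and the general forms did not overlap in this comparison. The smallest difference of a muscle form was 5.73 and the largest of a general form 3.30, and the medians of the groups differed by −3.71. The scanner errors of these ratios were 0.20 to 0.35, less than the distance between the groups of forms. All 14 measured muscle markers were lower by 2-fold or more as well. Their median was −5.15, and they ran from −7.18 for ACTN3, the fast-fibre actinin, to −1.97 for CASQ2. Haemoglobin genes were higher beside them, HBA by 2.10 and HBB2 by 2.06, and all 6 measured neutrophil genes were higher by 2-fold or more. All 4 adipocyte genes were higher too, with a median of 1.94 and PPARG highest at 2.63. Of 5 measured ligament fibroblast genes, BGN at −2.07 and LUM at −1.36 were lower by 2-fold or more. The part of these in the ratios of the 6 genes was not tested. In bulk tissue, fewer cells of a type and less RNA per cell cannot be told apart.

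Set against the L3/4 control instead, the same array of the fused segments was at 0.14 for ALDOA, 0.21 for GAPDH, −0.33 for LDHA and 0.15 for PPP1R3A, all under 2-fold. ENO3 was still lower, at −1.51, and was the only 1 of 5 measured members to reach 2-fold, beside 24.2% of features in either direction (11.2% higher and 12.9% lower). PYGM was not well above background in that control and no fold can be given. The low ratios in the fused segments thus rest on the control array of the same levels. The muscle markers had a median of −0.93 against the L3/4 control.

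The 2 control arrays were also set against each other, as the background of the other comparisons. They share arrays with both, so the ratios are not independent of those above. In the L3/4 control, PYGM was at least 91.9-fold lower than in the L2/3 and L4/5 control, PPP1R3A was at −5.88 and ENO3 at −4.65. ALDOA was at −3.44, GAPDH at −2.52 and LDHA at −2.12. All 5 measured members were lower by 2-fold or more, beside 9.15% of 13137 features (8.43% were higher and 17.6% differed in either direction). For ALDOA, GAPDH and PPP1R3A these ratios lay within about the scanner error of those of the fused segments.

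**Figure D2:**
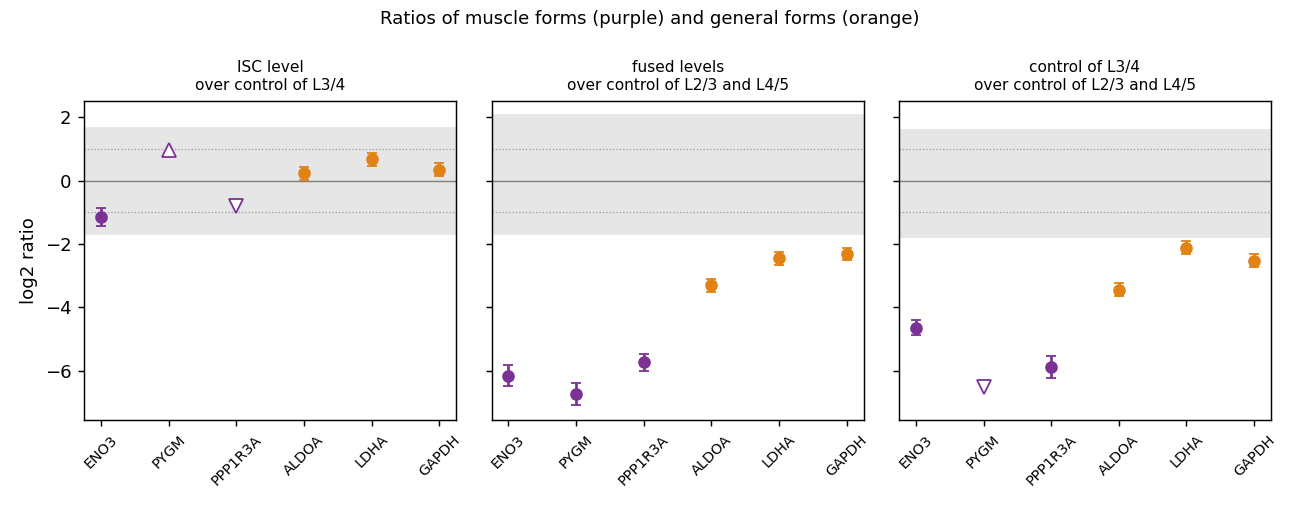
Log2 ratios of the 6 genes in the 3 comparisons, muscle forms in purple and general forms in orange. Bars are the scanner's error for a ratio of single spots and not a spread between animals, open triangles are bounds for genes not well above background on 1 of the arrays, the grey band holds the middle 95% of all features, and dotted lines mark 2-fold. Both comparisons with the L2/3 and L4/5 control place the muscle forms below the general forms, all of them below the grey band. In the ISC segment the 4 genes measured on both arrays lie inside it, and the bounds of PYGM and PPP1R3A cannot be placed against it.

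The other named genes of glycolysis and glycogen were taken from lists of 34 and 33 symbols, of which 11 and 12 had a named probe, members included. Genes such as the muscle phosphofructokinase and the muscle phosphoglycerate mutase had no named probe and are not analysed here. Leaving the 6 members out, 16 of 17 named genes were measured in the fused segments and in their control. Of these, 7 were lower and 2 higher by 2-fold or more, beside 9.12% and 7.83% of all features. Their median was −0.72, and that of all features −0.13. In the ISC segment 2 of 16, PGM1 and GYS1, both at −1.12, were lower by that much and none was higher, a share near the 10.5% of all features that were lower. The median was 0.03, and the highest was PHKA2 at 0.92.

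Along glycolysis, the differences in the fused segments were unequal. GPI, the isomerase of the first steps, was at −0.93 and PFKP, the platelet form of phosphofructokinase, at −0.51, both under 2-fold. TPI1, triose-phosphate isomerase, was at −1.62, with 5 probes from −1.82 to −1.49. PKM, the pyruvate kinase gene that makes the M1 and M2 forms, was at −1.53. ALDOA, GAPDH, ENO3 and LDHA differed by more than any of these 4. LDHB, the B chain of lactate dehydrogenase that prevails in heart, was at 0.29, whereas LDHA was at −2.45. BPGM, which makes 2,3-bisphosphoglycerate in red cells, was higher by 1.69, with 4 probes from 1.10 to 1.69, beside HBA at 2.10.

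Among the glycogen genes, subunits of the same enzyme differed. Phosphorylase kinase switches glycogen phosphorylase on, and its alpha and gamma subunits have muscle forms. In the fused segments PHKA1, the muscle alpha subunit, was at −2.88 and PHKG1, the muscle gamma subunit, at −3.25. PHKA2, the liver alpha subunit, was higher by 1.88, and PHKB, the beta subunit shared by both tissues, was at −0.21, although its 4 probes ranged from −1.53 to −0.21. PHKA1 had a further probe that was not well above background in the fused segments.

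PGM1, the phosphoglucomutase that hands glucose units to glycolysis, was low with PYGM, at −4.25. On the side of synthesis, GYG1, the glycogenin that primes the chain, was at −1.37. GYS1, the glycogen synthase of muscle and most other tissues, was at −0.45. The catalytic subunits of protein phosphatase 1 that PPP1R3A binds, PPP1CA at −0.19 and PPP1CB at 0.08, were close to 0 where PPP1R3A was at −5.73. FBP2, the muscle fructose bisphosphatase, was well above background only in the L2/3 and L4/5 control, and was lower by at least 8.26-fold in the fused segments.

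Against the L3/4 control, none of the measured glycolysis and glycogen genes outside the members was lower by 2-fold in the fused segments. PGM1 was at −0.79, PHKA1 at −0.67, PHKG1 at −0.51, PKM at −0.39, GYG1 at −0.13 and TPI1 at 0.16. PHKA2 was still higher, by 1.81, as was BPGM by 1.05. Of the 16 genes without the members, 2 were higher and 0 lower by 2-fold or more, and the median was −0.13. Of all 13353 features, 11.2% were higher and 12.9% lower, so the share of higher genes was near that of all features.

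Several of these genes also set the L3/4 control apart from the L2/3 and L4/5 control. PGM1 was at −3.46, PHKG1 at −2.74 and PHKA1 at −2.21, with a second PHKA1 probe at −0.91. LDHB was at 0.29 and PHKA2 at 0.07. In all, 7 of the 16 genes detected in the L2/3 and L4/5 control, TPI1, PKM, GYG1, PGM1, PHKA1 and PHKG1 among them, were at least 2-fold higher there than on each of the other 3 arrays, as were 18 of 19 detected muscle markers. Across all features well above background in that control, 3.13% (455 of 14529) were.

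**Figure D3:**
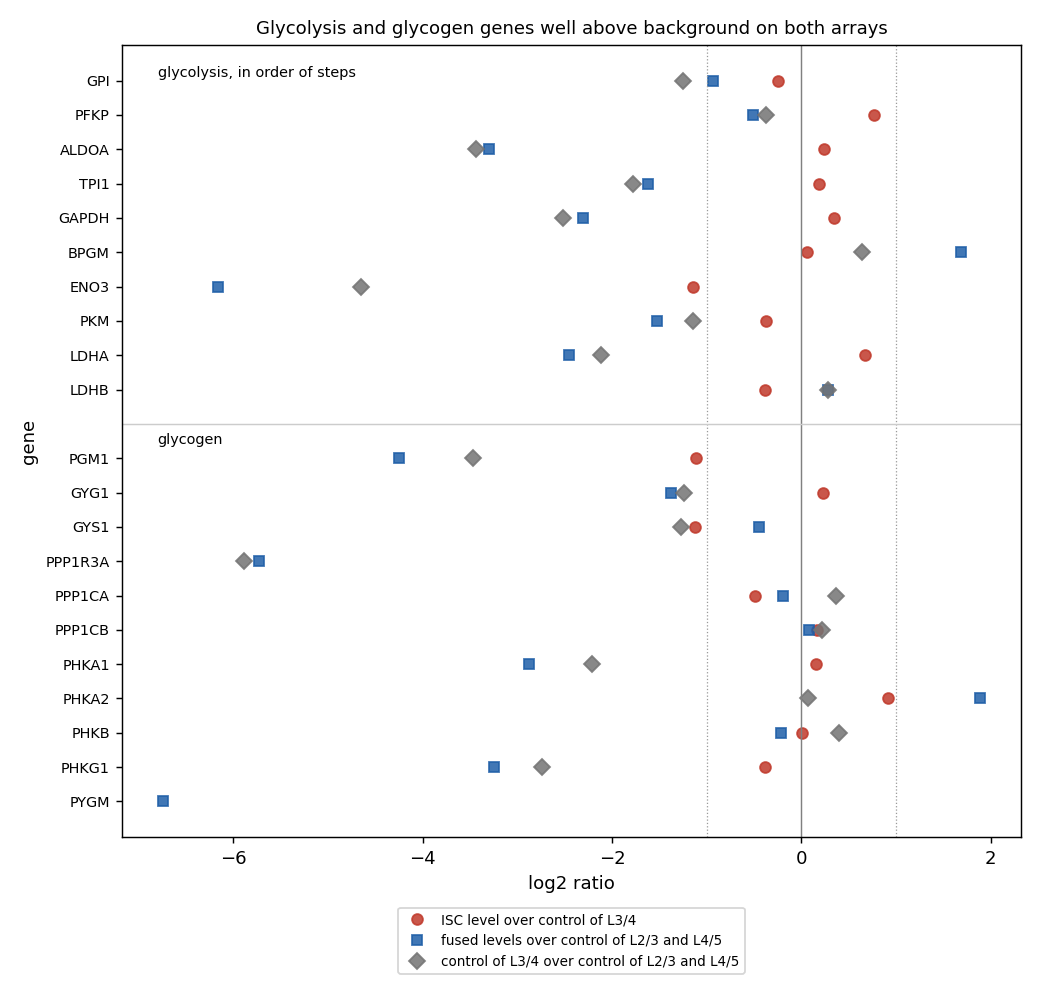
Log2 ratios of glycolysis genes, in the order of the steps, and of glycogen genes that the text names, in 3 comparisons (1 array per group, genes well above background on both arrays, dotted lines at 2-fold). Squares and diamonds, which share the L2/3 and L4/5 control, lie far to the left for ENO3, PPP1R3A, PGM1 and the muscle subunits PHKA1 and PHKG1, and near 0 for LDHB, PHKB, PPP1CA and PPP1CB. The plotted genes do not split cleanly by form. ALDOA, a general form, lies left of PHKA1, at −3.30 in the fused segments and −3.44 between the controls. GYS1, the glycogen synthase of muscle and most other tissues, is not a form of muscle alone and is at −0.45 and −1.27. Circles, the ISC segment over its control, stay between −1.14 and 0.92.

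LDHA differed from the other general forms between the surgery arrays. In the ISC segment it was higher than in the fused segments by 1.01, with all 5 probes between 1.005 and 1.16, while ALDOA was higher by 0.10 and GAPDH by 0.14. Of 14564 features measured on both arrays, 6.99% were higher and 7.76% lower by 2-fold or more (14.7% in either direction). PFKP was higher by 0.90 there, with 5 probes from 0.41 to 1.08. Of the 21 glycolysis and glycogen genes measured on both arrays, 2 were higher and 1 lower by 2-fold or more. Their median was 0.13, and that of all features 0.05. BPGM was at −0.99, GPI at −0.56, LDHB at −0.38, TPI1 at 0.04 and PKM at 0.01. The glucose carrier gene SLC2A1 was higher by 1.96 in the ISC segment than in the fused segments, with 5 probes from 1.86 to 2.25. SLC2A4, the insulin-regulated carrier of muscle and fat, went the other way, at −1.73, with 6 probes from −1.96 to −0.46. HIF1A, which encodes an oxygen-regulated factor, was higher by 1.37, with 3 probes from 1.36 to 1.61. It was the only 1 of 15 listed oxygen-regulated genes outside glycolysis with a named probe. Only its transcript was measured, and a link to LDHA or SLC2A1 was not tested. Markers of other cells also differed between these arrays. The 14 measured muscle markers had a median of 0.68 and ran from −0.65 for CASQ2 to 2.12 for MYL1. Only MYL1 and ACTN3, at 1.83, were 2-fold apart or more, and the other 12 were under 2-fold. The 7 measured neutrophil genes had a median of −4.51, with 6 lower by 2-fold or more and MMP9 higher by 1.30. Adipocyte genes had a median of −1.51 and haemoglobin genes of −1.41. The part of all these markers in the LDHA ratio was not tested. Against the L3/4 control the ISC segment was at 0.93 for HIF1A and −0.37 for SLC2A1, and LDHA was at 0.68. SLC2A4 was at −0.99 in that comparison and −0.01 in the fused segments against their control.

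The genes with profiles most like the members were found by the root mean square difference of centred levels over the 4 arrays, among 1194 other named genes. With 4 points dominated by 1 array, this is a description. Only genes well above background on all 4 arrays are named, and no likeness is given for PYGM, PPP1R3A or the mean of the muscle forms, which include levels at background. Among the 5 nearest to ENO3 were TNNC2, fast troponin C, at 0.40, CKM, muscle creatine kinase, at 0.44 and ATP2A1, the calcium pump of fast fibres, at 0.51. Among the 5 nearest to the mean of the general forms were CACNB1, a subunit of the muscle calcium channel, at 0.14 and PHKA1 at 0.25. ALDOA was closest to PHKG1 at 0.29 and LDHA to CACNA2D1 at 0.21, and GAPDH had CACNB1 at 0.18 among its 5 nearest.

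GAPDH is often used as a reference gene to which other transcripts are scaled. Its level spanned 2.52 over the 4 arrays. Of 19 genes in common use as references, a list added after the data were seen, 6 had a named probe, GAPDH among them. Over the same arrays the brightest ACTB probe spanned 0.45, EEF1A1 0.55, GUSB 0.53, the brightest HPRT1 probe 0.50 and PPIA 0.36. The 3 ACTB probes disagreed: between the controls their ratios ran from −2.31 to 0.49, and in the fused segments over their control from −1.27 to 0.42. For ACTB the contrast with GAPDH thus rests on the probe used. Without the L2/3 and L4/5 control, GAPDH spanned 0.35 and the other 5 genes, at these probes, 0.28 to 0.55. Scaled to GAPDH, the median of all features in the fused segments moved by 2.31 against their control. By construction this shift equals the size of the GAPDH ratio in that comparison.

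**Figure D4:**
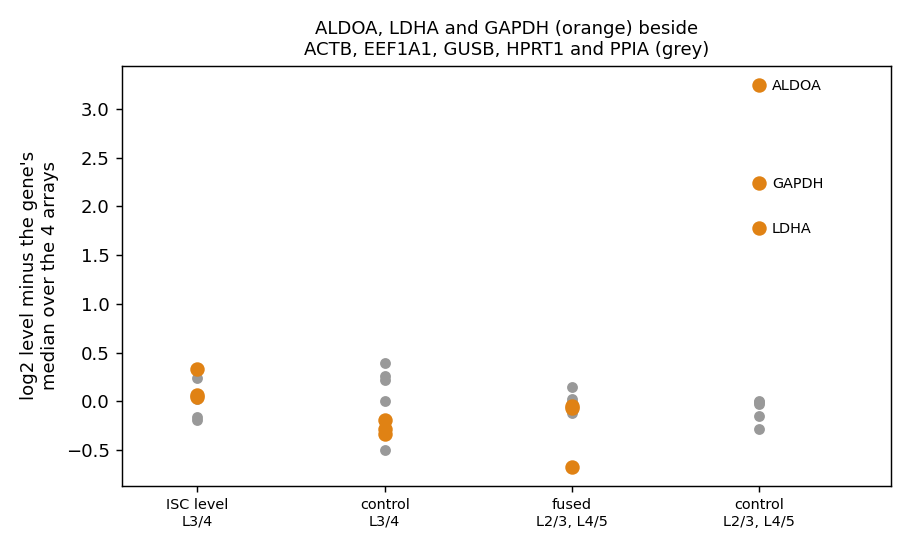
Log2 level of ALDOA, LDHA and GAPDH (orange) and of ACTB, EEF1A1, GUSB, HPRT1 and PPIA (grey) minus the median of each gene over the 4 arrays, 1 array per group, each gene at its probe with the highest mean level. At these probes the grey genes span at most 0.55 and the orange genes are highest in the L2/3 and L4/5 control. Another ACTB probe, not plotted, has a ratio of −2.31 between the controls.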

How the data were processed

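Total RNA labelled with Cy3 was hybridised to 1-colour Agilent arrays, and, per the submitters' processing notes, the scans went through Agilent Feature Extraction 12.0.3. The deposited scanner tables give linear intensities per spot, per the file headers background-subtracted within each array and not scaled between arrays. The files also mark spots well above background, per the file headers. The authors' deposited value table holds intensities equal to the processed signal times 1 factor per array (23.3, 37.5, 24.7 and 29.3 for the ISC segment, the L3/4 control, the fused segments and the L2/3 and L4/5 control). How the factors were chosen is not given in the sources used here. Its medians are 516, 442, 498 and 504 in that order.

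Control spots and 3 to 7 outlier spots per array were left out. Log2 signal was scaled to each array's 75th percentile (93.8, 53.4, 85.4 and 72.8 in that order), and spots of a probe were averaged. A probe was well above background when most of its spots were. Bounds set the bright array against the higher of the gene's own level and the lowest level well above background on the dim array. Symbols were looked up by transcript in RefSeq (assembly mOryCun1.1), which named 3792 probes (8.70%). No coordinates are given, since the array was designed on another build. The members and gene lists were chosen with earlier results of these data known. The genes named are the members, every measured gene of the glycolysis, glycogen and transport lists, up to 3 extremes of other lists, and the 5 nearest profiles where levels were well above background, except a few genes that are counted in their lists but not reported here. The computation of ratios was checked on simulated arrays with planted changes larger than 2-fold, every probe set well above background. That check does not cover signals near background. Python 3.11.15, R 4.3.3 and limma 3.58.1 were used. Normexp was run on median spot signals with an offset of 50, since the files hold no mean spot signal.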

Additional observations from a re-analysis of the deposited data

Results flagged for a closer look

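ALDOA, LDHA, GAPDH, TPI1, GYG1 and PFKP were higher in the ISC segment than in its control and lower in the fused segments than in theirs, and LDHB was lower and then higher. The ratio in the ISC segment minus that in the fused segments was 3.54 for ALDOA, 3.13 for LDHA, 2.66 for GAPDH, 1.81 for TPI1, 1.60 for GYG1, 1.27 for PFKP and −0.67 for LDHB on the log2 scale. PYGM also went in opposite directions, higher by at least 1.95-fold in the ISC segment and at −6.74 on the log2 scale in the fused segments. With 1 array per group these differences were not tested. They hold the gap between the controls, L3/4 over L2/3 and L4/5. That gap was −3.44 for ALDOA, −2.12 for LDHA, −2.52 for GAPDH, −1.77 for TPI1, −1.24 for GYG1, −0.37 for PFKP and 0.29 for LDHB. Over the L3/4 control, ALDOA at 0.24, TPI1 at 0.19 and GYG1 at 0.23 lay near their scanner errors of 0.20 to 0.21. GAPDH at 0.35, LDHA at 0.68, PFKP at 0.76 and LDHB at −0.38 lay further beyond theirs. The summed signal of muscle markers was 42.8 on the L3/4 control array, against 951 on the L2/3 and L4/5 control array, and its part in the difference was not tested.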

How the results depend on the processing

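Of 153 single ratios of members recomputed with other settings, of which scaling to GAPDH was chosen after seeing the data, 103 moved by less than the technical SD of a ratio (0.19). Part of this count was fixed in advance. Settings that change only the background filter cannot move a ratio, and averaging over probes cannot move that of a single-probe gene. The count is therefore no measure of stability. Against the control of the other lumbar levels the fused segments changed sign for PPP1R3A (0.15), ALDOA (0.14) and GAPDH (0.21), and scaled to GAPDH the L3/4 control did for LDHA (0.40). The ISC segment changed sign for ALDOA (−3.20), GAPDH (−2.17) and LDHA (−1.44) against the other control, for the same genes (−1.48, −0.91 and −0.38) against the mean of the controls, and for ALDOA (−0.11) scaled to GAPDH. In the ISC segment the count of members at least 2-fold apart, 1 as reported, was 0 with normexp and with a 4-fold size, 3 with probes detected on at least 1 array and with no filter, 5 against the other control, 2 against the mean of the controls and 2 with a 1.5-fold size. For the glycolysis and glycogen genes, 3 as reported, it was 0, 0, 5, 6, 14, 5 and 7 in that order. Without the members, 2 as reported, it was 0 with normexp and with 4-fold, 1 with the authors' scaling, 9 against the other control and 5 with 1.5-fold. In the fused segments, against the other control, 1 member, 3 genes of the lists and 2 without the members were 2-fold apart, beside 6, 15 and 9 as reported. With 4-fold, 4 genes without the members remained over the size. Scaled to GAPDH, 3 members were apart in the fused segments and 2 of 5 between the controls. Between the controls 9 of 21 list genes passed 4-fold, beside 14 at 2-fold, and without the members 4 at 4-fold and 5 with normexp, beside 9.

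The median of muscle forms minus that of general forms, −1.49 in the ISC segment from ENO3 alone, was −1.80 with quantile normalization, −1.92 with cyclic loess, −1.16 with normexp, −3.50 against the other control and −2.55 against the mean of the controls. In the fused segments it was −3.71, and −1.09 with normexp, −0.82 against the other control and −1.92 against the mean. Between the controls it was −2.75, and −2.51 with quantile normalization, −2.39 with cyclic loess, −0.36 with normexp and −3.36 with dim probes kept. Normexp adds 50 to every signal, which by construction shrinks ratios of dim probes. Scaling to GAPDH by construction shifts all ratios of a comparison by the same amount. Higher calls were 46.5%, 46.2% and 47.9% of all calls in the ISC segment, in the fused segments and between the controls, 66.3%, 62.8% and 34.4% with normexp, and 17.4%, 99.6% and 99.7% scaled to GAPDH. With the authors' scaling they were 58.9% in the ISC segment, where the median of all features moved by 0.12. Signals of PYGM, ENO3 and PPP1R3A on the 3 dimmer arrays lie near background, which limits their ratios there. No paired analysis was possible because each group has 1 array.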

Other observations

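GYS1, the glycogen synthase of muscle and most other tissues, had a level of −2.08 in the ISC segment, −0.95 in the L3/4 control, −0.13 in the fused segments and 0.31 in the L2/3 and L4/5 control. Between the ISC segment and the fused segments its ratio was −1.94, the lowest of the 21 glycolysis and glycogen genes measured on both arrays. PYGM was higher by 1.18 in the same comparison. SDHD and ATP5PO, the 2 named genes of mitochondrial respiration, were at −1.06 and −1.15 in the ISC segment over its control, where LDHA was at 0.68. This rests on the L3/4 control: over the L2/3 and L4/5 control the ISC segment was at −0.07 for SDHD, −0.38 for ATP5PO and −1.44 for LDHA. BPGM was at 0.64 in the L3/4 control over the L2/3 and L4/5 control, with 4 probes from −0.23 to 0.64, beside HBA at 1.59 and HBB2 at 1.45.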
